A study of Oncorhynchus mykiss with 30 samples.

Results

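The 6 Agilent probes described here were chosen from 60195 probes on the array because their signal was strongly over-expressed in gonads of all-male rainbow trout (Oncorhynchus mykiss) exposed to low concentrations of 17α-ethynylestradiol (EE2). They are TC120776, TC95845, TC95045, CUST_123_PI425536763 (CUST_123 below), TC125012 and TC122002. They stand for 6 of the raised genes that the study listed among its most strongly changed ones in the contrasts of 0.01 and 0.1 μgEE2/L against the control (CT1 and CT2). The values of CT1 and CT2 therefore chose the members, together with a call at 1 or 10 μgEE2/L against the control (CT3 or CT4). All differences that use the control, 0.01 or 0.1 μgEE2/L arrays are given below as descriptions without a test. The choice did not use the contrast of 10 against 1 μgEE2/L, the differences between tanks of a concentration or the covariation between its pools. These were tested, although the arrays of 1 and 10 μgEE2/L entered the choice through CT3 or CT4.

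Fry were kept for 76 days, between 60 and 136 days post-fertilisation, in water with the solvent alone (control) or with nominal EE2 concentrations of 0.01, 0.1, 1 or 10 μg/L, and all fish were sampled at 136 days. Measured concentrations averaged 0.08 ± 0.06, 1.62 ± 1.74 and 9.88 ± 5.06 μg/L (SD) for the nominal 0.1, 1 and 10 μg/L, while the lowest concentration was under the detection limit of 0.02 μg/L. Every group consisted of 3 tanks, 2 pools were made from each tank, and a pool held the gonads of 10 fish, which gave 6 arrays for each of the 5 groups and a total of 30. All samples were labelled as testis from male fish, whereas the study's histology described intersex and ovarian-like gonads in exposed fish. The 2 pools of a tank shared their water and were not independent exposures.

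EE2 is a synthetic oestrogen that binds the oestrogen receptors, which act as transcription factors. The sex of the fish gonad stays sensitive to steroids during early life, and oestrogens can turn a developing testis towards an ovotestis or an ovary. In such a gonad, the proportions of germ cells and somatic cells differ from those of a testis, and in pools of whole gonads fewer cells of a type and less RNA per cell cannot be told apart.

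In the study, TC95045 was annotated as similar to THEG, the testicular haploid expressed gene, which in mice is transcribed in spermatids. CUST_123 was annotated as LOC100136222, the CD8 beta chain of rainbow trout, which in mammals forms part of the co-receptor of cytotoxic T cells. TC125012 was annotated as LOC795591, similar to zebrafish tubulin alpha 6, and alpha tubulins are building blocks of microtubules. TC120776 and TC122002 carried the zebrafish gene names si:dkey-162h11.2 and CU856539.4, the last described as an uncharacterised protein, and TC95845 had no annotation. These names were tied to the probes through the fold changes of CT1 and CT2, not through sequence. The array files themselves name 0 of the 6 members by a gene symbol or RefSeq accession. Of the 5 gene names, 1 (LOC100136222) was found in the RefSeq gene table used here. By exact symbol, 0 of 30 marker symbols of ovary, testis, germ cells, T cells, blood and liver could be found among the names in the array files. The tissue label could therefore not be checked here. Through its own annotation the study did report such genes on this array, among them FOXL2 and dmrt1.

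Arrays had 75.6 to 88.2% of their probes well above background and 0 saturated spots, and their brightness, taken as the 75th percentile of the processed signal, was 359 to 1238 intensity units. The 4 slides held 7 to 8 arrays each, with all 5 groups on every slide. A region in the middle was dim on 2 arrays, those of replicate 1 at 0.1 μgEE2/L and of control replicate 4, and it touched some of the members as given below. All levels below are log2 values of the processed signal after quantile normalisation over the 30 arrays, and each member was printed as 1 spot per array. The brightness of a spot depends on its probe, so the signals and ranks of different probes are set side by side below only to place a spot within the range of its array, not to compare the expression of genes.

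TC95045, the THEG-like probe, had a lowest, median and highest level of 4.63, 6.82 and 8.80 in the control, 9.06, 9.90 and 10.93 at 0.01 μgEE2/L and 8.62, 13.07 and 13.69 at 0.1 μgEE2/L. These values were 12.83, 13.27 and 13.98 in pools exposed to 1 μgEE2/L and 12.30, 12.54 and 13.16 in those exposed to 10 μgEE2/L. The pools of 0.01, 1 and 10 μgEE2/L all lay above the highest control pool, while at 0.1 μgEE2/L 5 of 6 pools did. The remaining pool, replicate 1, lay below every pool at 0.01 μgEE2/L. Its spot was in the dim region of that array, where 58.1% of the 430 probes within 10 rows and 10 columns were over 4-fold below their group median. On replicate 4 of the control this share was 36.7%, and the spot was the lowest of the group and the only one of the 6 that was not well above background. The mean level exceeded the control by 3.30 ± 0.62 (SE of the fit, log2) at 0.01, 5.76 ± 0.62 at 0.1, 6.61 ± 0.62 at 1 and 5.93 ± 0.62 at 10 μgEE2/L, or 9.85-fold, 54.2-fold, 97.8-fold and 61.1-fold. Without the 2 arrays with a dim middle, these differences were 2.88 ± 0.37, 6.11 ± 0.38, 6.20 ± 0.37 and 5.52 ± 0.37, and the folds at 0.1 and 1 μgEE2/L, 69.2 and 73.3, lay closer together. Without replicate 1 at 0.1 μgEE2/L alone, the difference at that concentration was 6.53 ± 0.45, or 92.4-fold. With the normexp background described below, the folds of TC95045 at the 4 concentrations were 6.66, 34.3, 62.5 and 38.7.

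**Figure D1:**
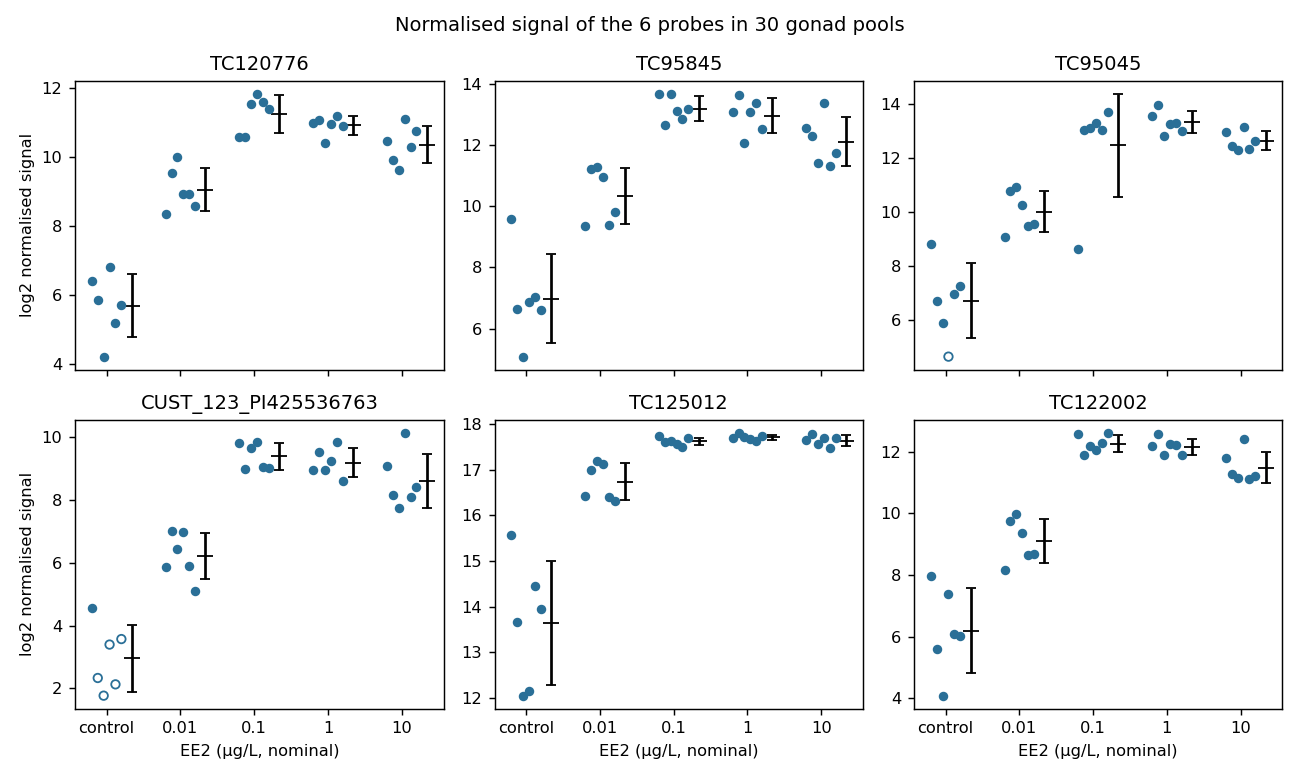
Log2 normalised signal (y axis, its range differs between panels) of the 6 probes in the 6 pools of each EE2 concentration (x axis, nominal), with open circles for spots not well above background and bars for the mean ± SD beside each group. Group means were lowest in the control, intermediate at 0.01 μgEE2/L and higher at 0.1, 1 and 10 μgEE2/L. Single pools departed from this order. TC95045 had 1 pool at 8.62 at 0.1 μgEE2/L, and the highest control pool of TC95845 (9.58) lay above its lowest at 0.01 (9.34). The lowest pool of TC120776 at 10 μgEE2/L (9.61) lay below its highest at 0.01 (10.01).

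CUST_123, the CD8 beta probe, was close to the background in the control, with a lowest, median and highest level of 1.77, 2.86 and 4.55. Pools exposed to 0.01 μgEE2/L had a lowest level of 5.10, a median of 6.16 and a highest level of 7.0, and those exposed to 0.1 μgEE2/L had 8.97, 9.35 and 9.85. Pools exposed to 1 μgEE2/L had 8.59, 9.10 and 9.85, and those exposed to 10 μgEE2/L had 7.75, 8.27 and 10.12. Every exposed pool lay above the highest control pool, and the pools of 0.01 and 0.1 μgEE2/L did not overlap. The spot was well above background on all 24 exposed arrays and on 1 of 6 control arrays, so the control level was measured on that array alone. The mean exceeded the control by 3.25 ± 0.41 at 0.01 and 6.43 ± 0.41 at 0.1 μgEE2/L (SE), or 9.54-fold and 86.2-fold. With control spots that were not well above background set to the lowest signal well above background on their array, these differences were 2.69 and 5.86, or 6.44-fold and 58.2-fold. With the normexp background and an offset of 50 intensity units they were 0.91 and 3.24, or 1.88-fold and 9.45-fold. The size of the difference from the control thus moved with the treatment of dim spots, while its direction was the same in these 3 settings.

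TC125012, the tubulin-like probe, was bright in every group, and its processed signal had a lowest, median and highest value of 1974, 16927 and 52506 intensity units in the control. The signal was 84850, 121415 and 181937 at 0.01, 177503, 193320 and 233141 at 0.1, 185117, 196896 and 228221 at 1 and 186630, 193993 and 227960 at 10 μgEE2/L. All 24 exposed pools lay above the control pools, and from 0.1 μgEE2/L upward the groups overlapped. In the processed signal, the lowest pool at 0.1 μgEE2/L (177503) lay below the highest at 0.01 (181937). After quantile normalisation, the lowest log2 level of TC125012 at 0.1 μgEE2/L, 17.50, lay above its highest at 0.01, 17.20. On the log2 scale its level had a lowest, median and highest value of 12.05, 13.80 and 15.57 in the control and 16.32, 16.70 and 17.20 at 0.01 μgEE2/L. It exceeded the control by 3.11 ± 0.36 at 0.01, 3.99 ± 0.36 at 0.1, 4.07 ± 0.36 at 1 and 4.00 ± 0.36 at 10 μgEE2/L, or 8.61-fold, 15.9-fold, 16.8-fold and 16.1-fold. The step between 0 and 0.01 μgEE2/L made up 76.3% of the largest rise in log2 level, against 47.8 to 60.5% for the other members. On replicate 4 of the control, 32.8% of the 424 neighbouring probes of its spot were over 4-fold below their group median, and the spot had its lowest processed signal there.

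The remaining members were TC120776, TC95845 and TC122002. TC120776 had a lowest, median and highest level of 4.20, 5.77 and 6.80 in the control, 8.34, 8.92 and 10.01 at 0.01, 10.57, 11.48 and 11.82 at 0.1, 10.41, 10.97 and 11.19 at 1 and 9.61, 10.37 and 11.10 at 10 μgEE2/L. Its exposed pools did not overlap the control, and its pools at 0.1 μgEE2/L lay above those at 0.01. At 10 μgEE2/L, 4 of 6 pools lay above every pool at 0.01. The mean difference from the control was 3.37 ± 0.34 at 0.01, 5.57 ± 0.34 at 0.1, 5.24 ± 0.34 at 1 and 4.67 ± 0.34 at 10 μgEE2/L, or 10.3-fold, 47.4-fold, 37.7-fold and 25.4-fold. With the normexp background the same differences were 2.44, 4.44, 4.15 and 3.60.

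TC95845, the probe with no annotation, had a lowest, median and highest level of 5.08, 6.76 and 9.58 in the control and 9.34, 10.38 and 11.29 at 0.01 μgEE2/L. The control value of 9.58 came from replicate 1, and 4 of the 6 pools at 0.01 μgEE2/L lay above it. The medians in pools exposed to 0.1, 1 and 10 μgEE2/L were 13.15, 13.07 and 12.02, with ranges of 12.65 to 13.66, 12.06 to 13.63 and 11.31 to 13.38, all above the control and above 0.01 μgEE2/L. The mean difference from the control was 3.36 ± 0.50 at 0.01, 6.22 ± 0.50 at 0.1, 5.98 ± 0.50 at 1 and 5.14 ± 0.50 at 10 μgEE2/L, or 10.3-fold, 74.4-fold, 63.3-fold and 35.3-fold. With the normexp background the folds of TC95845 were 5.96, 41.4, 35.1 and 19.2.

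TC122002 had a lowest, median and highest level of 4.08, 6.06 and 7.98 in the control and 8.16, 9.02 and 9.97 at 0.01 μgEE2/L. With 0.1, 1 and 10 μgEE2/L, medians were 12.23, 12.19 and 11.24, with ranges of 11.89 to 12.59, 11.87 to 12.57 and 11.09 to 12.40. Exposed and control pools did not overlap, nor did those of 0.01 and 0.1 μgEE2/L. The mean difference from the control was 2.90 ± 0.41 at 0.01, 6.06 ± 0.41 at 0.1, 5.96 ± 0.41 at 1 and 5.29 ± 0.41 at 10 μgEE2/L, or 7.46-fold, 66.9-fold, 62.4-fold and 39.1-fold. With the normexp background the differences of TC122002 were 2.09, 5.13, 5.02 and 4.32, with folds between 4.25 at 0.01 and 35.0 at 0.1 μgEE2/L.

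Over the 6 members, the difference from the control lay between 2.90 and 3.37 at 0.01 μgEE2/L and between 3.99 and 6.43 at 0.1 μgEE2/L. The value of 6.43 and the rank of 1 given below belong to CUST_123, and both depend on control spots that were not well above background on 5 of 6 arrays. With these at the lowest signal well above background, the highest value of the members was 6.22, that of TC95845. At 0.01 μgEE2/L CUST_123 was then the smallest member, at 2.69, and with the normexp background it was at 0.91. The ranges above and the ranks and counts below are those without these changes. Among the 352 probes with an adjusted p below 0.01 and a rise over 1.5-fold in both CT1 and CT2 and a mean above the median, the members held ranks 30 to 41 by their rise at 0.01 μgEE2/L. At 0.1 μgEE2/L 5 of them held ranks between 1 and 9, and TC125012 rank 75. At 0.01 μgEE2/L, 35 other probes of the 352 rose by more than the smallest member, TC122002 at 2.90, and the closest one below it rose by 2.85. Within the 4 slides taken one by one, the difference of the members from the control was above 0 on all 4 slides at each concentration, and its lowest value was 1.53, for CUST_123 at 0.01 μgEE2/L.

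All 6 pools lay above all 6 control pools for 5 members at 0.01, 5 at 0.1, 6 at 1 and 6 at 10 μgEE2/L, against 0.965, 4.84, 7.82 and 7.28% of all probes. All 24 exposed pools lay above the control for 4 members, against 0.372% of all probes, and the exceptions were TC95845 at 0.01 and TC95045 at 0.1 μgEE2/L. Without replicate 1 of the control this held for all 6 members, and without replicate 1 at 0.1 μgEE2/L for 5. The pools at 0.1 μgEE2/L lay above those at 0.01 for 5 members, against 3.74% of all probes. These counts follow from the way the members were chosen.

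Above 0.1 μgEE2/L the levels of neighbouring concentrations overlapped for all members, as they did for most probes of the array. All pools at 1 μgEE2/L lay above those at 0.1 for 1.13% of all probes and below them for 3.22%. For 10 against 1 μgEE2/L these shares were 0.131 and 0.317%. The group means rose at both steps up to 0.1 μgEE2/L in 6 of 6 members, against 23.7% of all probes, and at every step up to 1 μgEE2/L in 2 of 6, against 10.5% of all probes. Those were TC95045, whose step between 0.1 and 1 μgEE2/L was 0.85 ± 0.62 (SE, log2), and TC125012, whose step was 0.08 ± 0.36. The step of TC95045 rested on its dim spot in replicate 1 at 0.1 μgEE2/L, without which it was 0.08 ± 0.45. The other 4 members were highest at 0.1 μgEE2/L, with steps to 1 μgEE2/L between -0.33 and -0.10. After scaling to the 75th percentile, only 1 member rose at every step.

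The means at 10 and 1 μgEE2/L came from arrays that CT1 and CT2 did not compare, but that entered the choice through CT3 or CT4. The spread behind their contrast was estimated from all 30 arrays. All 6 members had a lower mean at 10 than at 1 μgEE2/L, as had 47.1% of all probes, and 0 of 6 passed an adjusted p of 0.05 in limma, as did 0.00332% of all probes (2 of 60195, with 2887 at an unadjusted p below 0.05). TC95845 had the largest difference, -0.84 (95% interval -1.87 to 0.18), or 0.557-fold. TC95045 differed by -0.68 (-1.96 to 0.60), TC122002 by -0.68 (-1.53 to 0.17), CUST_123 by -0.59 (-1.44 to 0.26) and TC120776 by -0.57 (-1.27 to 0.14). For TC125012 the difference was -0.07 (-0.80 to 0.66). The adjusted p was 1.00 for each member in limma, and the unadjusted p ranged from 0.103 to 0.853.

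The SD of the members' log2 level in the control ranged from 0.92 to 1.46, against a median of 0.45 for all probes, and was their highest among the 5 groups apart from TC95045, which had an SD of 1.90 at 0.1 μgEE2/L with its dim spot. At 10 μgEE2/L the SD was 0.11 to 0.87 and at 1 μgEE2/L 0.06 to 0.57. In a limma fit to the 12 arrays of 10 and 1 μgEE2/L alone, an alternative added after the values were seen, 4 of 6 members had an unadjusted p below 0.05, as had 6.94% of all probes (4178 of 60195). After adjustment 0 of 6 members and 2 of all probes passed, and the adjusted p of the members lay between 0.505 and 0.880. Between 2 (TC125012) and 5 (TC122002) of the pools at 10 μgEE2/L lay below every pool at 1 μgEE2/L, and 1 pool of CUST_123, replicate 4, lay above them all. Within slides, the difference was below 0 on 3 slides and above 0 on 1 slide for each member, between -2.20 and 0.91. The slide above 0 was the same for every member but TC125012. It held replicates 1 and 4 at 10 μgEE2/L and replicate 3 at 1 μgEE2/L, so the members shared the arrays behind this count. The share of all probes was not taken for it.

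**Figure D2:**
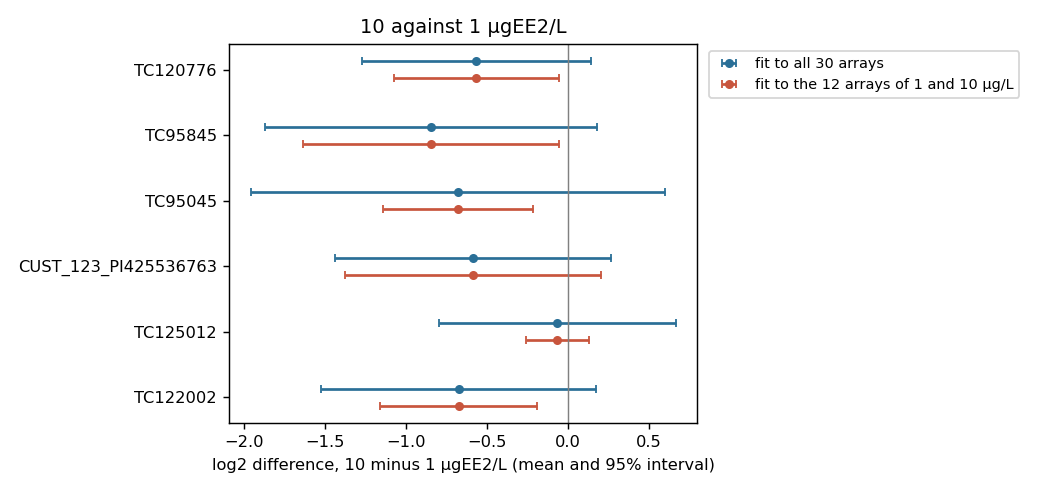
Log2 difference between 10 and 1 μgEE2/L (x axis, points with 95% intervals) for each probe (y axis), from the limma fit to all 30 arrays and from the fit to the 12 arrays of these concentrations alone. All points lie below 0, between -0.84 and -0.07, and the intervals of the fit to 30 arrays all include 0.

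The course of TC125012 was flat where it was brightest, in the processed signal and after quantile normalisation. Scaled to the 75th percentile instead, it exceeded the control by 4.22 at 0.1, 3.84 at 1 and 3.65 at 10 μgEE2/L. These were 18.6-fold, 14.3-fold and 12.5-fold, and on that scale the pools spanned 17.05 to 18.31. Over the 18 arrays at 0.1, 1 and 10 μgEE2/L its processed signal lay between 177503 and 233141, a 1.31-fold range, against ranges of 2.99-fold to 5.36-fold for the members other than TC95045, which ranged 46.7-fold with its dim spot. Its SD of the log2 level over these arrays was 0.09, compared with a median SD of 0.48 for all probes, of which 0.575% had an SD as low. Its median rank was 124 among the 60195 probes, counted from the brightest. Among the 290 probes with a median rank of 1 to 300 on these arrays, the median SD was 0.15, and 26.2% had an SD at or below that of TC125012.

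No spot of TC125012 was marked saturated, and the median signal of its spot reached at most 33.0% of the value at which the scanner saturates (779435 to 779518). The brightest probe of the array was 2.16 to 3.11 times brighter on these 18 arrays. The spread was thus small among other bright probes too, and the part of brightness in the flat course was not tested. For comparison, TC95845 reached at most 3.32% of the signal of the brightest probe.

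**Figure D3:**
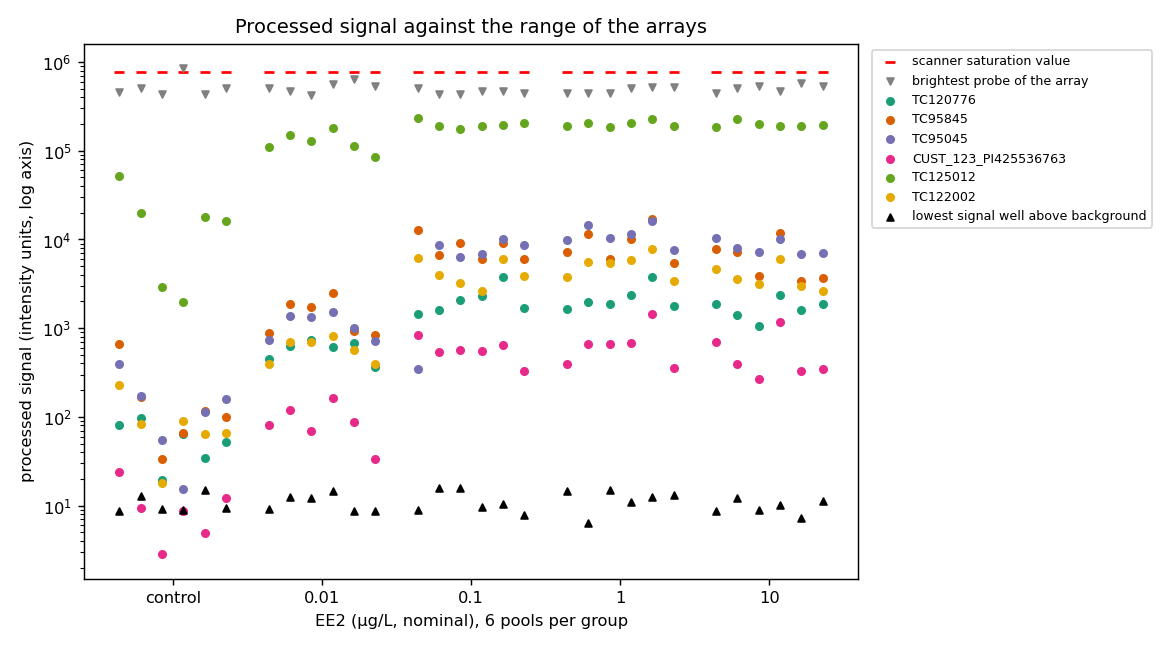
Processed signal (y axis, intensity units, log scale) of the 6 probes in the 30 pools (x axis, by nominal EE2 concentration), with the saturation value of the scanner, the brightest probe and the lowest signal well above background of each array. TC125012 lay between 177503 and 233141 from 0.1 μgEE2/L upward, below the brightest probe, and CUST_123 lay near the lowest measurable signal in the control.

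Pools of a concentration differed, and the members tended to differ together. At 0.01 μgEE2/L, replicates 2, 3 and 4 were the 3 highest pools for all 6 members, an order that held for 11.8% of all probes, while the reverse held for 12.2%. TC95845, for example, had 11.23, 11.29 and 10.96 in these pools and 9.34, 9.37 and 9.81 in replicates 1, 5 and 6. Replicate 2 came from the same tank as replicate 1, and replicates 3 and 4 shared another tank. The 75th percentile of the processed signal was 648, 556 and 979 on the arrays of replicates 2, 3 and 4, and 1082, 1100 and 742 on those of replicates 1, 5 and 6. In this group, r between the level and this brightness was negative for all 6 members, from -0.80 to -0.20 (6 pools, given without a test). The part of brightness in the order of the pools was not tested.

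In the control, replicate 1 was the highest pool for 5 of 6 members, against 14.2% of all probes, and replicate 3 the lowest for 5 of 6, against 11% of all probes. For CUST_123, replicate 1 was the only control spot well above background, so the order of its other control pools rests on spots near the background. At 10 μgEE2/L, replicate 4 was the highest for 5 of 6, against 24.7% of all probes. In the control, TC122002 had 7.98 in replicate 1 and 4.08 in replicate 3, and TC95845 had 9.58 and 5.08. At 1 μgEE2/L replicate 2 was the highest for 4 of 6, and at 0.1 μgEE2/L no pool was the highest for more than 2. For these counts the share of all probes was not taken, so they cannot be set against the array.

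**Figure D4:**
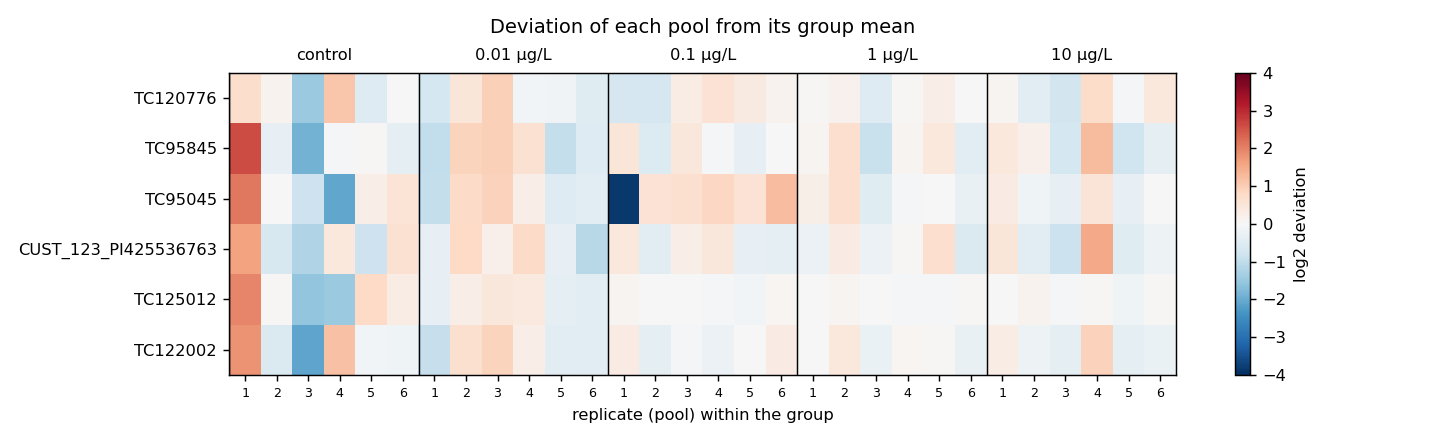
Deviation of each pool from the mean of its group (colour, log2 units) for the 6 probes (rows) in the 30 pools (columns, ordered by nominal EE2 concentration and replicate). Replicate 1 of the control and replicates 2 and 3 at 0.01 μgEE2/L were above their group mean for all 6 probes, and the darkest cell is the dim spot of TC95045 in replicate 1 at 0.1 μgEE2/L.

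The deviations of the 30 pools from their group means correlated positively for 15 of 15 pairs of members, with a Pearson r of 0.26 to 0.88 and a median of 0.55. In a permutation of pools within groups (two-sided, 100000 permutations, adjusted over 21 relations), 8 pairs had an adjusted p below 0.05 for r and 13 for Spearman's rho. The strongest was between TC95845 and TC122002, with r = 0.88 and rho = 0.87, both with p = 1e-05, the smallest these permutations can give, and adjusted p of 0.0001 and 0.00021. CUST_123 and TC95845 had r = 0.80 and rho = 0.70 (adjusted permutation p of 0.0001 and 0.001), and TC120776 and TC122002 had r = 0.77 and rho = 0.66 (0.00079 and 0.0031). CUST_123 and TC122002 had r = 0.76 and rho = 0.74 (0.00042 and 0.001). All values of r and rho of CUST_123 include its control levels, which were well above background on 1 of 6 arrays. The part of these dim spots in the covariation was not tested. Over the other probes of the array, the median r with a member lay between -0.10 and 0.03, and 0.711 to 7.20% of them had an r over 0.5 with it. An r as high as that of TC95845 and TC122002 was reached by 0.0150% of other probes with the first and 0.00997% with the second. For TC95045 and CUST_123 these shares were 13.9 and 19.5%, and for TC120776 and TC125012 17.6 and 9.40%. The other probes were not limited to those raised by EE2.

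The weakest pairs included TC95045 or TC125012. The spot of TC95045 lay in the dim region of both arrays and that of TC125012 in the one of control replicate 4. On replicate 1 at 0.1 μgEE2/L, 1.65% of the neighbours of TC125012 were over 4-fold below their group median. TC95045 and CUST_123 had r = 0.26 and rho = 0.43 (adjusted permutation p of 0.27 and 0.034), TC95045 and TC122002 had r = 0.27 and rho = 0.52 (0.32 and 0.016), and TC120776 and TC125012 had r = 0.26 and rho = 0.25 (0.49 and 0.29). Without the 2 arrays with a dim middle, r of the 15 pairs lay between 0.60 and 0.95 with a median of 0.79, and it was 0.76, 0.95 and 0.63 for these 3 pairs. All 15 pairs then had an r over 0.5, as against 9 over the 30 pools.

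Part of the covariation rested on a few control pools. Without the 2 pools farthest from the median of the deviations, replicates 1 and 3 of the control, r between TC95845 and TC125012 was 0.35, compared with 0.71 over all pools, and r between TC125012 and TC122002 was -0.08, compared with 0.53. For TC95845 and TC122002 it stayed at 0.77, and for TC95845 and CUST_123 at 0.72. By group, the median r of the 15 pairs was 0.69 in the control, 0.90 at 0.01, 0.05 at 0.1, 0.65 at 1 and 0.79 at 10 μgEE2/L (6 pools each, given without a test). The number of positive pairs was 15 in the control, 15 at 0.01, 9 at 0.1, 13 at 1 and 15 at 10 μgEE2/L, and the dim spot of TC95045 is among the pools at 0.1 μgEE2/L.

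The covariation was also present between pools of a tank and within slides. The deviations of pools from their tank's mean gave 15 positive pairs with a median r of 0.62, and tank means gave 15 with a median of 0.64. Deviations within groups of the same slide gave 15 with a median of 0.78. An array alone in its group on a slide has no deviation there, so this value rests on fewer arrays. Replicates 1, 3 and 4 of the control shared a slide and are among them. Array brightness, taken as the 75th percentile of the processed signal, had an adjusted permutation p below 0.05 with 0 members for r and with 2 for rho. These were TC120776 (r = -0.41, rho = -0.49, adjusted p of 0.14 and 0.02) and TC122002 (r = -0.35, rho = -0.44, adjusted p of 0.25 and 0.034). Brightness was also fitted to the deviations, with 1 slope per member over all groups. All 15 pairs then kept a positive r, with a median of 0.61. A common slope cannot remove a relation that differs between groups. For TC95045, r with brightness was 0.53 in the control and -0.80 at 0.01 μgEE2/L. The remaining part of brightness in the covariation was not tested.

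**Figure D5:**
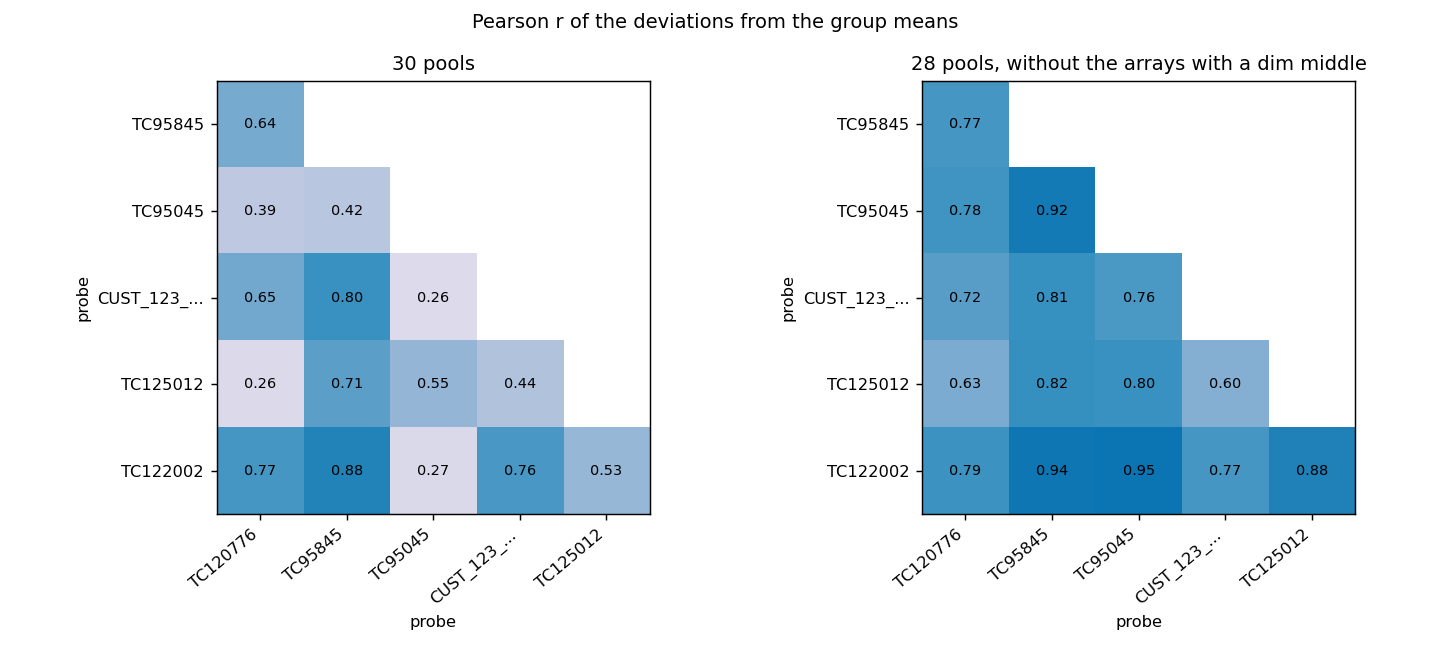
Pearson r of the deviations from the group means for each pair of probes (rows and columns; CUST_123_... stands for CUST_123_PI425536763), over 30 pools and over the 28 pools without the arrays with a dim middle. All 15 values are positive in both panels, from 0.26 to 0.88 over 30 pools and from 0.60 to 0.95 over 28.

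Tanks of a concentration did not differ detectably. In limma's F test over the 10 differences between tanks of the same group, 0 of 6 members passed an adjusted p of 0.05, as did 0.00997% of all probes (6 of 60195, with 4180 at an unadjusted p below 0.05). TC125012 had the lowest p, 0.000932 before and 0.582 after adjustment, and the adjusted p of the other 5 members ranged from 0.759 to 0.968. This order depended on the labels of exchanged pools, given below. With the tanks of the deposited log2 table, TC122002 had the lowest p of the F test, 0.00605 before and 0.368 after adjustment. TC125012 then had an unadjusted p of 0.804. With 2 pools per tank the test has few replicates.

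Over the 30 pools, r between members was 0.90 to 0.98, a value that includes the shared rise with EE2 by which they were chosen. Among 53076 other probes well above background on at least 6 arrays, the one most like TC95845 was TC129570, with r = 0.99 over the pools and r = 0.95 for the deviations from the group means. TC129570 had mean levels of 6.71 in the control, 9.40 at 0.01, 12.42 at 0.1, 12.19 at 1 and 11.13 at 10 μgEE2/L. TC127725 was the probe most like TC95045 by both measures, with r = 0.97 and 0.93, and had means of 6.78, 9.17, 10.36, 10.58 and 10.04 in the same order of concentrations. TC101248 was the most alike over the pools for both CUST_123 (r = 0.98) and TC122002 (r = 0.99), with means of 5.17, 7.38, 10.27, 10.19 and 9.42.

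For TC120776 the most alike probe over the pools was CUST_15147_PI425536763 (r = 0.97), and for TC125012 it was TC123398 (r = 0.93). By deviations from the group means, the most alike probes were TC101333 for TC120776 (r = 0.78), CUST_19697_PI425536763 for CUST_123 (r = 0.87), CUST_25452_PI425536763 for TC125012 (r = 0.75) and TC118024 for TC122002 (r = 0.91). CUST_19697_PI425536763 had another course over the concentrations than CUST_123, with means of 5.85 in the control, 7.43 at 0.01, 9.67 at 0.1, 7.11 at 1 and 6.46 at 10 μgEE2/L. The array files pair none of these probes with a gene name. Being the highest among 53076 probes, these values of r are given as a description.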

How the data were processed

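Gonad RNA of 30 pools was hybridised to single-colour Agilent arrays. The authors read the scans with Feature Extraction 10.7.3.1, and the deposited processed signal is a background-subtracted intensity on a linear scale. A further deposited file holds the authors' log2 values after quantile normalisation over the 30 arrays (R 2.15.3). There, the columns of 6 samples matched the scanner files of another pool of the same concentration (3 pairs exchanged), and the labels of the scanner files were used. The pairs were replicates 2 and 4 of the control, 1 and 6 at 0.1 and 4 and 5 at 10 μgEE2/L. The pools of each pair came from different tanks. Replicate numbers and tanks given for these pools are those of the scanner files, and which labels are right was not tested. Control spots were left out, spots of a probe were averaged after removing outlier spots, and their log2 values were quantile normalised. For all 60195 probes, 1 mean per concentration was fitted with limma 3.58.1 (R 4.3.3), with Benjamini-Hochberg adjustment within each contrast and a threshold of 0.05. Files were read and correlations tested with Python 3.11.15 (numpy 2.4.6, pandas 2.3.3), and figures drawn with matplotlib 3.10.9. The number of arrays limits the precision. The scripts were tested on simulated data.

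The members and lists were chosen with earlier results of these data known. Beside the members, the text names for each the probe with the highest r over pools and the one with the highest r of deviations from group means. The alternatives were scaling to the 75th percentile, the deposited log2 values, the normexp background, a filter on dim probes, outlier spots kept, array weights, slide, replicate number or tank as a block, a brightness covariate, tank means, Scheffe's criterion, leaving out the 2 arrays with a dim middle and leaving out each array. Sequences and genome positions of the probes were not used here.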

Additional observations from a re-analysis of the deposited data

Results flagged for a closer look

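In 30 combinations of a member and a concentration, 2 had a pool far from the other 5 by Dixon's criterion for 6 samples at the 95% level. TC95045 at 0.1 μgEE2/L had a log2 level of 8.62 in replicate 1, with a gap of 0.869 of the range, and this spot lay in the dim region of its array. TC120776 at 1 μgEE2/L had 10.41 in replicate 3, with a gap of 0.637 of the range. By chance about 1 group in 20 would be singled out at this criterion.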

How the results depend on the processing

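Under all alternatives run, 0 of 6 members passed the threshold for 10 against 1 μgEE2/L, with adjusted p between 0.133 and 1.00, and 0 of 6 for differences between tanks. The number of members whose means rose at every step up to 1 μgEE2/L was 2, and 1 after scaling to the 75th percentile. Leaving out 1 array at a time gave 4 to 6 members without overlap between the exposed and control pools and 14 to 15 positive pairs. The lower values were 4, as over all arrays, and 14 without replicate 3 of the control. The size of r moved more than its sign. The median r of the pairs was lowest without replicate 1 of the control, 0.41 with 7 pairs over 0.5. It was highest without replicate 1 at 0.1 μgEE2/L, 0.71 with 12 pairs over 0.5. Tank means gave 6 members without overlap. Of the single differences under the alternatives, 0 changed direction, and 8 moved by more than the spread between pools, those of TC120776 and CUST_123 from the control with the normexp background. That background also lowered the folds of TC95845 and TC122002 by over 1.5 times at all concentrations, and those of TC95045 at 0.1, 1 and 10 μgEE2/L, and moved those of TC125012 by less.

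Over all probes, the count called for 10 against 1 μgEE2/L was 2 and lay between 0 and 5 under the alternatives, apart from 2229 with array weights and 103 without replicate 4 at 10 μgEE2/L. The count for tanks was 6 and lay between 0 and 10, apart from 144 without the 2 arrays with a dim middle. The causes were not tested. With the replicate number as a block, 0 members and 2 probes were called. Arrays of the same number in different groups shared only a number: their deviations correlated with a median r of 0.02 (range -0.46 to 0.43, 60 pairs of arrays), against -0.02 for different numbers, so the numbers were not used as pairs.

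The probes' gene names rest on the study's list, the control level of CUST_123 was at the lower limit of the arrays, and 3 tanks per concentration limit all comparisons. The exchange of labels in the deposited table bears on the tank test, whose adjusted p for the members lay between 0.368 and 0.910 with that table's tanks. It also bears on the correlations of tank means and of deviations within tanks. These used the labels of the scanner files and were not repeated with that table's tanks.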
